A study of Mus musculus with 12 samples.

Results

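The poly(A) tail machinery described here is a set of 39 genes whose products add the poly(A) tail to a messenger RNA, bind it, shorten it, or remove the cap and degrade the body of the message. The members were taken by name, as known subunits and enzymes; no measured value entered the rule, but the list was drawn up with earlier results of these data known. Of the 39, 36 had a probe set of their own on the array and 35 were above the filter on low values, out of 13853 genes tested in all. The annotation of the probes gave no symbol for Cnot3 or Cnot4, Cstf2 is named only on probe sets shared with Nox1, and Papolg lay below the filter.

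Expression was measured on Affymetrix MG-430 PM arrays in the hippocampus on the injected side of mice that had received kainic acid (KA) or vehicle in the amygdala. KA is a glutamate receptor agonist, and its injection into the amygdala is used to set off status epilepticus. The KA mice received 0.3 µg in a volume of 0.2 µl of phosphate-buffered saline. Lorazepam, a benzodiazepine, followed KA by 40 min at 6 mg/kg intraperitoneally. Control mice received 0.2 µl of the vehicle. Whether they also received lorazepam is not stated in the sources used here. If they did not, the parts of KA and lorazepam cannot be told apart in any comparison of KA with control. There were 4 groups of 3 arrays: control and KA at 8 h, and control and KA at 14 d. Strain, age and sex are not given in the labels, and nothing there says that the 3 arrays of a group came from separate animals, so each p-value reflects the spread among these arrays alone, which may be technical.

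The poly(A) tail is made in the nucleus, where the CPSF, CSTF and cleavage factor complexes cut the nascent transcript and a poly(A) polymerase extends the new end. In the cytoplasm, poly(A)-binding proteins coat the tail, and the CCR4-NOT and PAN2-PAN3 complexes and the nuclease PARN shorten it. Messages whose tails are short can be decapped by DCP2 and then degraded from the capped end by XRN1. In neurons, local tail length control is known as one of the ways in which translation of dendritic messages is set.

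The log2 values of the arrays had medians from 4.90 to 4.95, and arrays of a group correlated at 0.989 to 0.997. The third arrays of the 4 groups deviated from their group means in like ways, with pairwise correlations of the deviations from 0.40 to 0.53. On the KA arrays at 8 h, Xist, the RNA of the inactive X chromosome, was at 8.71, 7.39 and 7.84, against 4.19 to 4.67 on the other 9 arrays. The Y-linked Eif2s3y was at 5.57, 6.45 and 6.83 on those KA arrays and at 7.46 to 8.09 on the others. The backgrounds of those KA arrays were 4.30, 4.46 and 4.10, so each carried both Xist and Eif2s3y signal. Whether an array held RNA of both sexes is not given in the labels and was not tested. The sex of the animals behind the KA arrays at 8 h and the KA treatment therefore cannot be told apart in any comparison that uses this group. In the labels the time field of the 8 h arrays counts up from 8 to 13 h over the 6 arrays. The controls are at 8, 9 and 10 h there and the KA arrays at 11, 12 and 13 h. The titles give 8 h for all and were followed. If the field is right, time and KA cannot be told apart in the 8 h comparison. All 6 neuron markers and all 7 measured markers of hippocampal principal cells were above the array's background on all 12 arrays.

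Promoter windows from RefSeq (GRCm38.p6), covering 250 bases before to 50 bases after a gene's start, were held for 30 of the 39 members. The 4 below are shown because they belong to members that changed at 8 h and hold an ETS or a TATA match; they were chosen after the motif matches were seen. Capitals mark matches, on either strand, to the ETS factor motif CCGGAAGT, the GC box GGGCGG or the TATA box TATAAA. Parn lies at chr16:13668121-13668420 on the minus strand, Cnot10 at chr9:114640151-114640450 on the minus strand, Cpsf3 at chr12:21286047-21286346 on the plus strand and Pabpc4 at chr4:123282661-123282960 on the plus strand. Each is written 5′ to 3′ on its gene's strand.
Parn: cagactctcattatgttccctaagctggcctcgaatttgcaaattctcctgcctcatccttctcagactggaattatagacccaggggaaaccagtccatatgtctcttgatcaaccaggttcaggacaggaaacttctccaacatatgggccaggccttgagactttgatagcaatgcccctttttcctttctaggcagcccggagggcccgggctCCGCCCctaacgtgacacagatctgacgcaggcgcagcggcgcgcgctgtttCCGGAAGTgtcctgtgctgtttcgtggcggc
Cnot10: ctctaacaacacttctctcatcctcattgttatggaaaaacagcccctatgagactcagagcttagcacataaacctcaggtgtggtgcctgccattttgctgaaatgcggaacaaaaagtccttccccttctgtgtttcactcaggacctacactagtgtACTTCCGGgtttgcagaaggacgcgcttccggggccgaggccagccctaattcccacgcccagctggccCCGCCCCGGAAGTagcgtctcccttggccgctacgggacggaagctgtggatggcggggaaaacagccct
Cpsf3: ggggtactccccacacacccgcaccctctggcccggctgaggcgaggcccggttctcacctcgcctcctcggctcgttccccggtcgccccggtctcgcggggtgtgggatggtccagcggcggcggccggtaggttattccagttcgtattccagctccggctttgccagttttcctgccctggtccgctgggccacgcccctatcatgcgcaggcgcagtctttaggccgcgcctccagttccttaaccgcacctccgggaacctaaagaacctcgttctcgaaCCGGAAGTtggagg
Pabpc4: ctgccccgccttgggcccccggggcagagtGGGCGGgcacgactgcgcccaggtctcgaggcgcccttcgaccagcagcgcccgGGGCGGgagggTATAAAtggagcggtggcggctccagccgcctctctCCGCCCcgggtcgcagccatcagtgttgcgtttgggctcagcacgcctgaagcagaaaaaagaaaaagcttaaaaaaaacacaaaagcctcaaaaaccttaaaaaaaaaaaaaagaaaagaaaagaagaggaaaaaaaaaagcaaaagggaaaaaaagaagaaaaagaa
The ETS letters start at base 270 of the Parn window and at base 287 of the Cpsf3 window. Cnot10 holds them at bases 162 and 236, and the second of these overlaps a GC box that starts at base 231. Pabpc4 holds no ETS match, but 3 GC boxes and a TATA box at base 96.

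The ETS motif was in 6 of the 30 members with a window (Parn, Cnot10, Cpsf3, Cstf3, Edc4 and Nudt21) and in 3.89% of all 32851 windows. A member was counted if any of its windows held the motif, and the 30 members had 38 windows. Member counts are thus of genes and the shares of single windows, which raises the member side for genes with several windows. The GC box was in 20 of the 30 members and in 35.7% of all windows. The median GC content was 63.7% over the 38 member windows and 52.7% over all windows, and the part of GC content in the motif counts was not tested. TATAAA was in 1 member, Pabpc4, and in 13.6% of all windows. The motif TGACGTCA, bound by CREB, was in 0 members and in 1.79% of all windows, and the AP-1 motif TGANTCA was in 1 member, Pan2, and in 7.81%. CCAAT was in 10 members and in 37.4% of all windows, the YY1 motif AAGATGGCG in 3 members and in 1.4%, the NRF1 motif CGCATGCGC in 1 and in 1.75%, and the E2F motif TTTCCCGC in 0 and in 1.07%. Papola, which rose at 8 h, held none of the searched motifs in its window. Xrn1, which fell, held a GC box and no ETS match. Cstf3, Edc4 and Nudt21, which hold the ETS motif, were not called at 8 h. Pabpc1, which rose, and Dcp2, which fell, had no window and were not searched. These are matches of letters in a fixed window and say nothing about binding in these samples.

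At 8 h after KA, 8 of the 35 tested members (22.9%) changed at an adjusted p under 0.05 (limma's moderated test over all genes, with Benjamini-Hochberg adjustment), against 17.5% of all genes tested. Papola, Pabpc1 and Pabpc4, which make or bind the tail, rose. Parn and Cnot10 of the deadenylation group, Dcp2 and Xrn1 of the decapping and decay group, and the cleavage endonuclease Cpsf3 fell. Over all genes, 7.92% were called higher and 9.55% lower. Each role had 2 genes called, too few to read a direction from a role. The changes were modest in size, from 1.19-fold to 1.67-fold. The median change of the 35 members was 0.03 on the log2 scale, against -0.02 over all genes, and 19 members had values above 0 and 16 below. The 3 arrays of KA did not overlap the 3 control arrays in 11 members (31.4%), against 33.8% of all genes, so this count was no higher than the background. In bulk tissue, fewer cells of a type and less RNA per cell cannot be told apart.

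**Figure D1:**
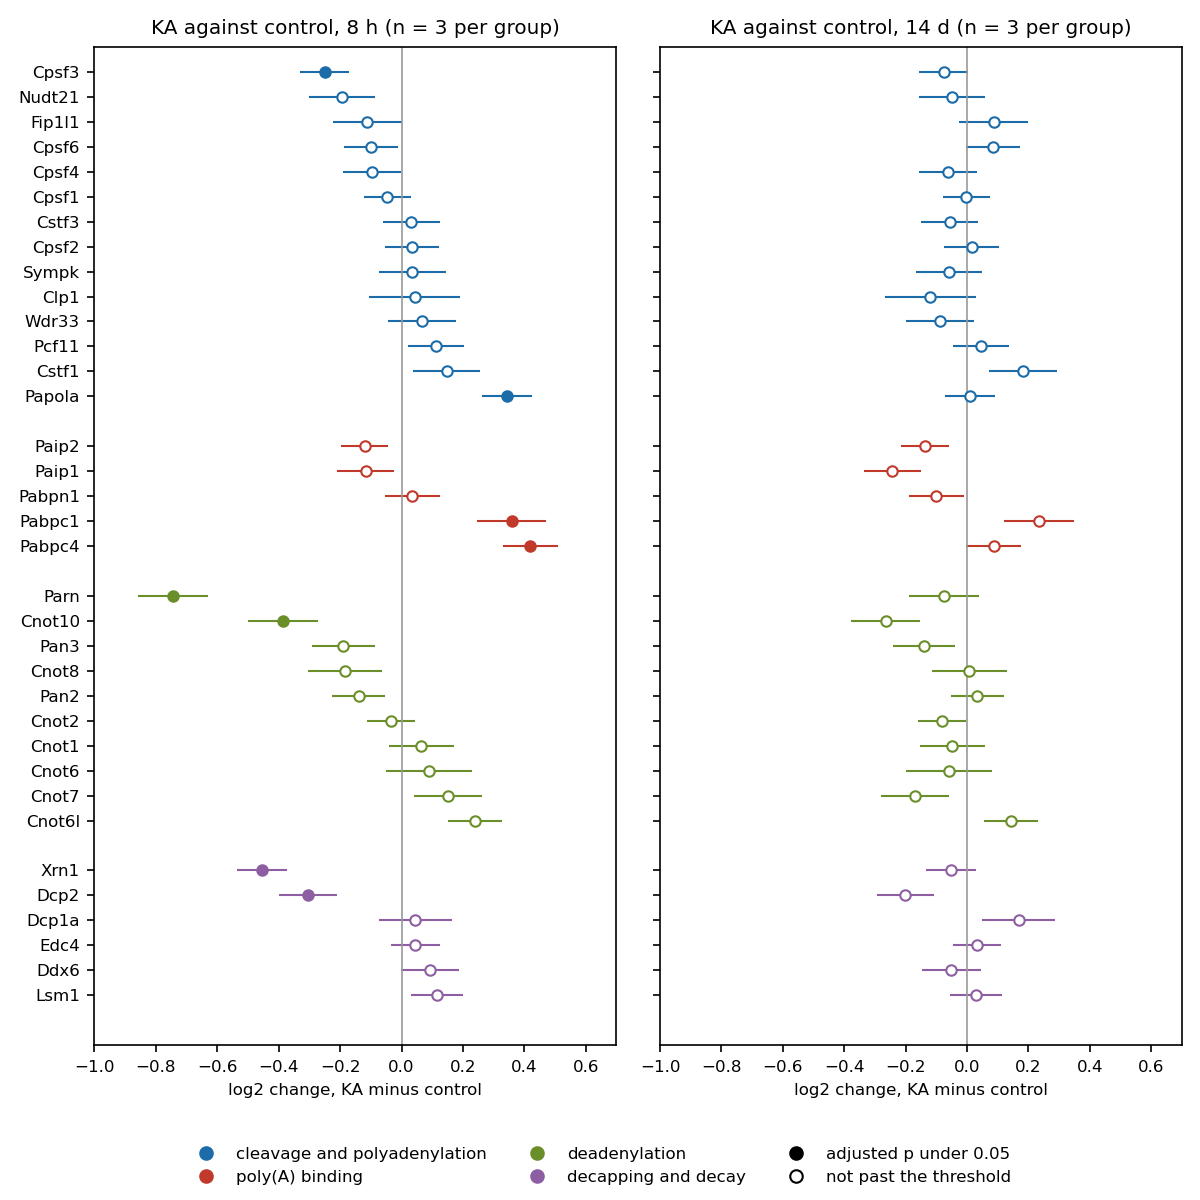
Each point is the log2 change of one member, KA minus control, at 8 h (left) and at 14 d (right), with 3 arrays per group; bars are standard errors of the fit and colours mark the role. Filled points passed an adjusted p under 0.05, which was the case for 8 members at 8 h and for 0 at 14 d.

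Among the 14 tested genes of cleavage and polyadenylation, 1 rose and 1 fell at 8 h (14.3% called, against 17.5% of all genes). Papola encodes the canonical nuclear poly(A) polymerase. Its log2 intensity was 8.36, 8.38 and 8.44 on the control arrays and 8.65, 8.81 and 8.74 on the KA arrays. Every KA array lay above every control array, and the log2 change was 0.34 ± 0.08 (SE, n = 3 per group; adjusted p = 0.00881, limma). At 14 d the controls were at 8.59, 8.60 and 8.66 and the KA arrays at 8.76, 8.52 and 8.61, which overlap, with a change of 0.01 ± 0.08. The 14 d controls were thus above the 8 h controls, by 0.23 on the log2 scale, a difference that did not pass the test (adjusted p = 0.189, limma).

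Cpsf3, the subunit of CPSF that cuts the transcript, was at 7.69, 7.70 and 7.59 on the 8 h control arrays and at 7.44, 7.50 and 7.29 on the KA arrays. The groups did not overlap and the change was -0.25 ± 0.08 (SE; adjusted p = 0.0395, limma). At 14 d the controls were at 7.80, 7.71 and 7.81 and the KA arrays at 7.67, 7.72 and 7.70, with a change of -0.08 ± 0.08. The other 12 tested genes of this group did not pass. They include the scaffold Sympk, the RNA-binding CPSF subunits Wdr33 and Cpsf4, and Fip1l1, which tethers the polymerase. Nudt21, whose product binds upstream elements and takes part in the choice of poly(A) site, had the smallest p among them, with 7.39, 7.27 and 7.36 on control arrays, 6.96, 7.34 and 7.14 on KA arrays, and a change of -0.19 ± 0.11 (adjusted p = 0.257, limma). Cpsf6, its partner, was above background on 3 of 12 arrays, so its value carries little information, and Clp1 was above background on 10.

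Of the 5 tail-binding genes and their regulators, 2 rose at 8 h and 0 fell (40% called, against 17.5% of all genes). Pabpc4, a cytoplasmic poly(A)-binding protein, was at 7.18, 7.31 and 7.09 on control arrays and at 7.53, 7.71 and 7.61 on KA arrays. The groups did not overlap, and the change was 0.42 ± 0.09 (SE; adjusted p = 0.00437, limma). At 14 d its controls were at 7.03, 7.21 and 7.19 and its KA arrays at 7.32, 7.12 and 7.26, with a change of 0.09 ± 0.09. Pabpc1, the main cytoplasmic poly(A)-binding protein, was at 7.73, 7.54 and 7.69 on 8 h control arrays and at 7.96, 7.98 and 8.10 on KA arrays. Its change was 0.36 ± 0.11 (SE; adjusted p = 0.0399, limma), again with no overlap.

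At 14 d, Pabpc1 was at 7.44, 7.58 and 7.51 on control arrays and at 7.85, 7.44 and 7.95 on KA arrays. The second KA array lay level with the lowest control and the other KA arrays above all controls, and the change of 0.23 ± 0.11 did not pass (adjusted p = 0.426, limma). The nuclear Pabpn1, which stimulates the polymerase, had a change of 0.04 ± 0.09 at 8 h. Paip1 and Paip2, a coactivator and an inhibitor that bind cytoplasmic poly(A)-binding protein, had changes of -0.12 ± 0.09 and -0.12 ± 0.08. Neither passed the test, although the Paip2 groups did not overlap.

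In the deadenylation group 2 of 10 tested genes fell at 8 h and 0 rose (20% called, against 17.5% of all genes). Parn, a poly(A)-specific nuclease that also trims small noncoding RNAs, had the largest change of any member at the probe sets used, which for Parn and Pabpc4 are of the x_at class, one that can cross-hybridise. At their other probe sets the changes were -0.47 for Parn and 0.54 for Pabpc4. Parn was at 7.88, 7.88 and 7.99 on control arrays and at 7.15, 7.21 and 7.17 on KA arrays. The log2 change was -0.74 ± 0.11 (SE; adjusted p = 0.000325, limma), or 1.67-fold lower, and the gap between the groups was far larger than the spread within them. At 14 d the controls were at 7.55, 7.64 and 7.86 and the KA arrays at 7.68, 7.32 and 7.82, and the change was -0.08 ± 0.11.

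Cnot10, which binds the N-terminal part of the CCR4-NOT scaffold, was at 7.01, 7.13 and 7.05 on 8 h control arrays and at 6.74, 6.82 and 6.48 on KA arrays. Its change was -0.39 ± 0.11 (SE; adjusted p = 0.0286, limma), without overlap. At 14 d its KA arrays, at 6.91, 6.97 and 6.87, again lay below the controls, at 7.45, 7.01 and 7.07, but the change of -0.27 ± 0.11 did not pass (adjusted p = 0.334, limma). The scaffold Cnot1, its partner Cnot2 and the catalytic subunits Cnot6, Cnot6l, Cnot7 and Cnot8 did not pass. Cnot6l came nearest, at 7.39, 7.45 and 7.37 on control arrays and 7.61, 7.64 and 7.67 on KA arrays, a change of 0.24 ± 0.09 with no overlap (adjusted p = 0.075, limma). With the replicate number as a block Cnot6l passed (adjusted p = 0.047), which brought the count of members called at 8 h to 9. It also passed with cyclic loess normalization and without the second KA array at 14 d. Pan3, the adaptor of the PAN2 nuclease, was at 8.38, 8.47 and 8.60 on control arrays and at 8.16, 8.33 and 8.39 on KA arrays. Its change was -0.19 ± 0.10 (adjusted p = 0.247, limma). At its other probe sets above the filter the changes were -0.50 and -0.05, and neither passed. The one at -0.50, of the s_at class, was above background on all 12 arrays. Its difference from the probe set used did not pass (-0.31 ± 0.15, adjusted p = 0.381, limma). The size of the Pan3 change thus depended on the probe set. Pan2 was above background on 9 of 12 arrays.

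In the decapping and decay group 2 of 6 genes fell at 8 h and 0 rose (33.3% called, against 17.5% of all genes). Xrn1, the exonuclease that degrades decapped messages, was at 6.57, 6.60 and 6.60 on control arrays and at 6.21, 6.12 and 6.07 on KA arrays. The change was -0.45 ± 0.08 (SE; adjusted p = 0.00115, limma), and the groups were well apart. At 14 d the controls, at 6.56, 6.50 and 6.69, and the KA arrays, at 6.57, 6.43 and 6.60, overlapped, with a change of -0.05 ± 0.08. Dcp2, the catalytic subunit of the decapping enzyme, was at 7.75, 7.75 and 7.77 on 8 h control arrays and at 7.31, 7.67 and 7.36 on KA arrays.

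The second KA array of Dcp2 lay close to the controls and the other two well below, and the change was -0.30 ± 0.09 (SE; adjusted p = 0.0343, limma). Its 14 d values were 7.56, 7.66 and 7.65 in controls and 7.44, 7.49 and 7.34 with KA, which do not overlap, with a change of -0.20 ± 0.09 (adjusted p = 0.388, limma). The activators of decapping Dcp1a, Edc4 and Lsm1 and the helicase Ddx6 had changes of 0.04 ± 0.12, 0.05 ± 0.08, 0.12 ± 0.08 and 0.09 ± 0.09 at 8 h, none of which passed. Over the 27 tested members that did not pass at 8 h, changes at the probe sets used ran from -0.19 to 0.24. Their 95% intervals reached from -0.44 to 0.43 at the widest. Probe sets not used are outside this range of changes, such as that of Pan3 at -0.50.

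**Figure D2:**
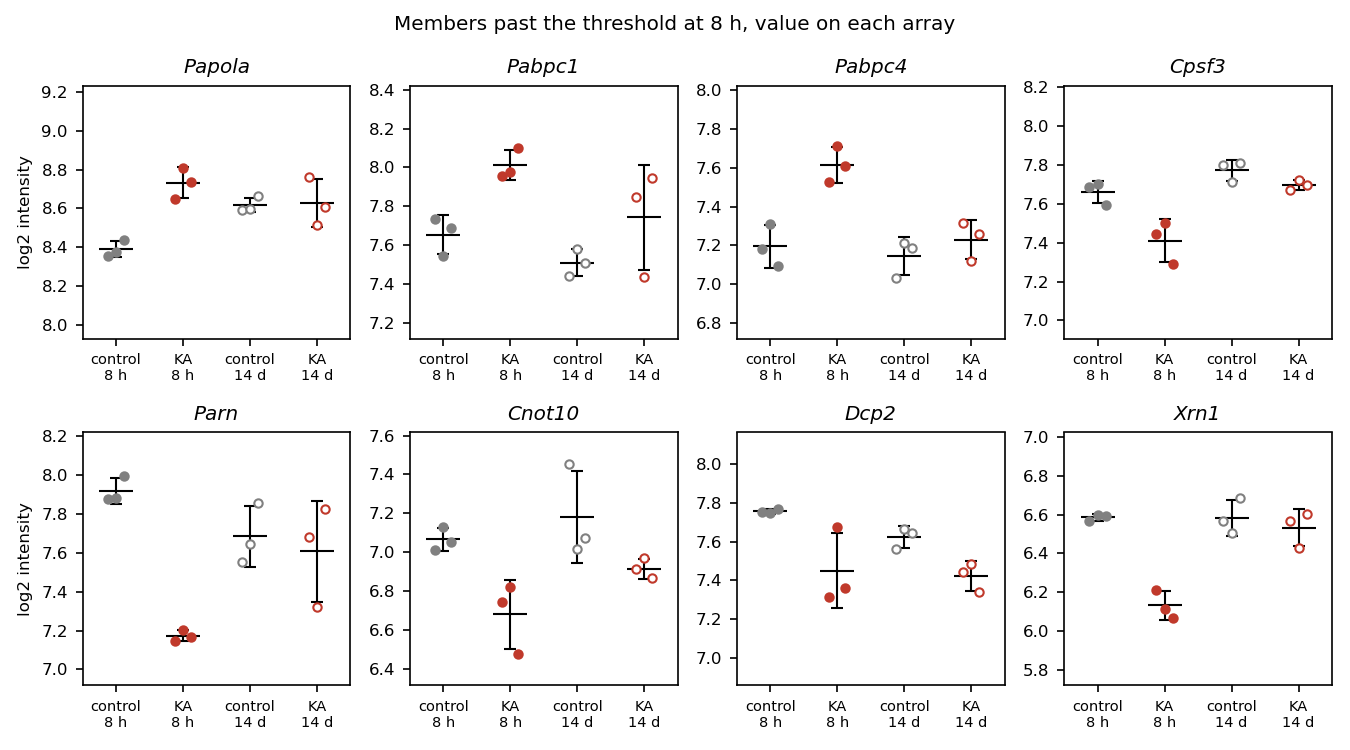
Log2 intensity on each array (points) of the 8 members that passed at 8 h, in the 4 groups, with the mean and SD of the 3 arrays; all panels span the same height on the log2 scale, so that sizes of change can be set side by side but levels of different genes cannot. In all 8 the filled KA points at 8 h lie apart from the filled control points, whereas at 14 d only Cnot10 and Dcp2 have groups that do not overlap.

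Papola, Pabpc4, Parn and Xrn1 passed at 8 h without any one of the 12 arrays, with adjusted p-values up to 0.037, 0.027, 0.0025 and 0.00709. The calls of Cnot10, Dcp2, Cpsf3 and Pabpc1 were lost together, leaving 4 members, without any one of the 8 h control arrays 1, 2 and 3 or of the 8 h KA arrays 1 and 3. Pabpc1 was also lost without the second KA array at 8 h or the second or the third control array at 14 d, and Cpsf3 without the first or second control array or the first KA array at 14 d. Their highest adjusted p-values were 0.127 for Cnot10, 0.153 for Dcp2, 0.162 for Cpsf3 and 0.155 for Pabpc1. With the third arrays of all groups left out, the same 4 members, Papola, Pabpc4, Parn and Xrn1, passed. A fit of the 8 h groups alone gave 6 members, without Dcp2 (adjusted p = 0.0582) and Cpsf3 (adjusted p = 0.0701), and median centring gave 7, without Pabpc1 (adjusted p = 0.0653). Cyclic loess normalization gave 6 members, without Cnot10, Cpsf3 and Dcp2 and with Cnot6l. Of these, 4 rose and 2 fell, where the values as deposited gave 3 and 5.

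At 14 d, 0 of the 35 members passed (limma), against 2.56% of all genes; 3 had an unadjusted p under 0.05 (8.57%, against 12.6% of all genes). These were Paip1, with a change of -0.24 ± 0.09 (adjusted p = 0.244), Cnot10 and Dcp2. Paip1 was at 5.73, 5.86 and 5.80 on control arrays and at 5.45, 5.60 and 5.61 on KA arrays, all lower. The groups did not overlap in 4 members (11.4%), Paip1, Paip2, Cnot10 and Dcp2, all lower with KA, against 16.5% of all genes. Changes ran from -0.27 to 0.23, with 95% intervals from -0.51 to 0.48 at the widest. Array weights gave 6 members at 14 d (Pabpc1, Cstf1, Cnot6l, Paip1, Cnot7 and Sympk), although that fit gave a convergence warning. Without the second KA array at 14 d, 1 member passed, Pabpc1.

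All 8 members called at 8 h had the same sign at 14 d and a smaller change. They were picked by their 8 h values, which alone favours a smaller change at 14 d. No fading of the changes can be read from this. Whether the change itself differed between the times was tested as the change at 14 d minus that at 8 h. In this test 1 of 35 members passed (2.86%), against 5.52% of all genes. It was Parn, with a difference of 0.67 ± 0.16 (SE; adjusted p = 0.0236, limma), the fall at 8 h being larger than the change at 14 d. Xrn1 had a difference of 0.40 ± 0.11 (adjusted p = 0.0562), Papola of -0.33 ± 0.12 (adjusted p = 0.124) and Pabpc4 of -0.33 ± 0.13 (adjusted p = 0.17), which did not pass; with the replicate block Xrn1 passed too (adjusted p = 0.0334). The call on Parn was lost without the third control array or the first KA array at 8 h, or without the first or second control array or the first KA array at 14 d, with adjusted p-values from 0.0575 to 0.0693 and differences from 0.60 to 0.65. Xrn1 passed beside Parn without the third control array (adjusted p = 0.0487) or the second KA array at 14 d (adjusted p = 0.0267), and Cnot7 did without the third KA array at 14 d. The call on Parn rested on its x_at probe set, and with such probe sets left out the difference was 0.36 (adjusted p = 0.265). Between the controls of the 2 times, 0 of 35 members passed in limma, against 1.8% of all genes, and 7 had an unadjusted p under 0.05 (against 14.8% of all genes); Paip1, lower by a log2 change of -0.32 at 14 d, had the smallest (adjusted p = 0.0961), and passed with the replicate block.

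The members had 82 probe sets, of which 71 were above the filter. At 8 h, 11 of these (15.5%) passed when all probe sets were tested, against 14.8% of all probe sets; 4 rose and 7 fell. Of 23 members with more than one such probe set, 16 had the same sign at 8 h on all of them. Both probe sets of Pabpc4 rose, by 0.42 and 0.54, both of Cnot10 fell (-0.39 and -0.46) and both of Parn fell (-0.74 and -0.47). The second probe set of Xrn1 had a change of -0.20 ± 0.08 (adjusted p = 0.0969, limma), and that of Dcp2, at 4.47, 4.51 and 4.53 on control arrays and 4.66, 4.43 and 4.65 on KA arrays, had a change of 0.08 ± 0.09. That second probe set of Dcp2 was above background on only 9 of 12 arrays, so its sign carries little information.

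**Figure D3:**
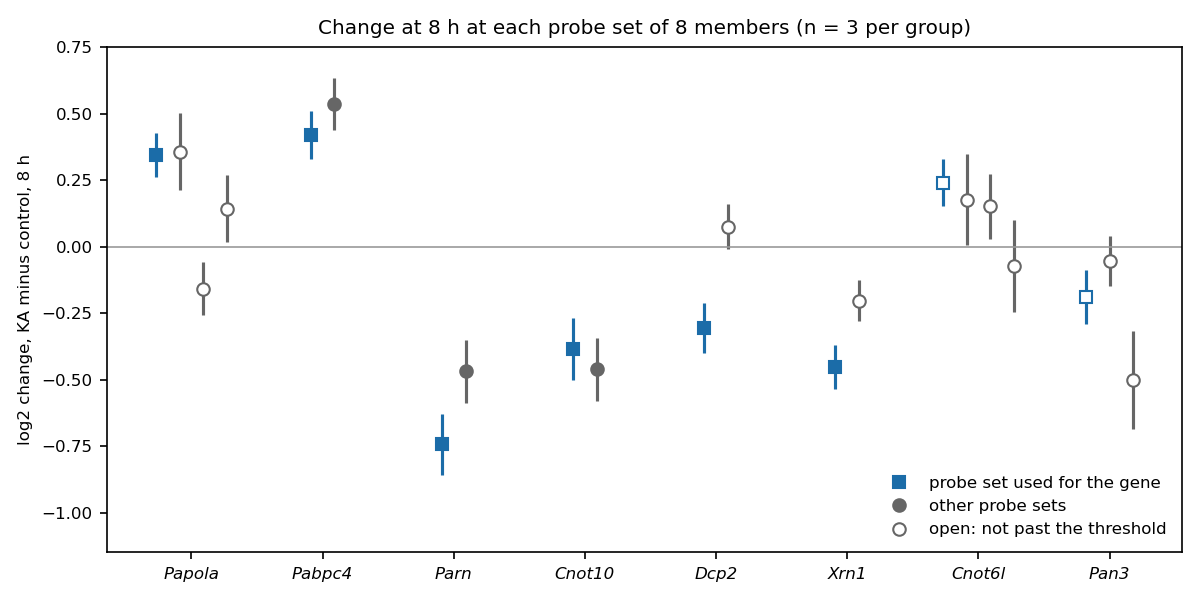
Log2 change at 8 h, KA minus control with its standard error, at each probe set above the filter of 8 members; squares are the probe sets used for the gene, circles the others, and filled symbols passed an adjusted p under 0.05. Both symbols are filled for Pabpc4, Parn and Cnot10, and Papola has points on both sides of 0.

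Papola had 4 probe sets above the filter. Beside the one that rose, the probe set 1424216_PM_a_at was at 7.57, 7.59 and 7.76 on 8 h control arrays and at 7.92, 7.87 and 8.20 on KA arrays. Its change of 0.36 ± 0.14 was of like size but did not pass (adjusted p = 0.118, limma), and 1424217_PM_at had a change of 0.14 ± 0.13. The probe set 1427544_PM_a_at was at 7.05, 7.06 and 6.97 on control arrays and at 6.68, 6.91 and 7.01 on KA arrays, a change of -0.16 ± 0.10 in the other direction. The difference between this probe set and the one used was tested as one value per array, over 8539 such pairs of all genes, a test added after these values were seen. It changed by -0.50 ± 0.10 between control and KA at 8 h (adjusted p = 0.0142, limma), where 2.76% of all pairs passed. Of 36 member pairs in 23 genes it was the only one to pass, a share close to that of all pairs.

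**Figure D4:**
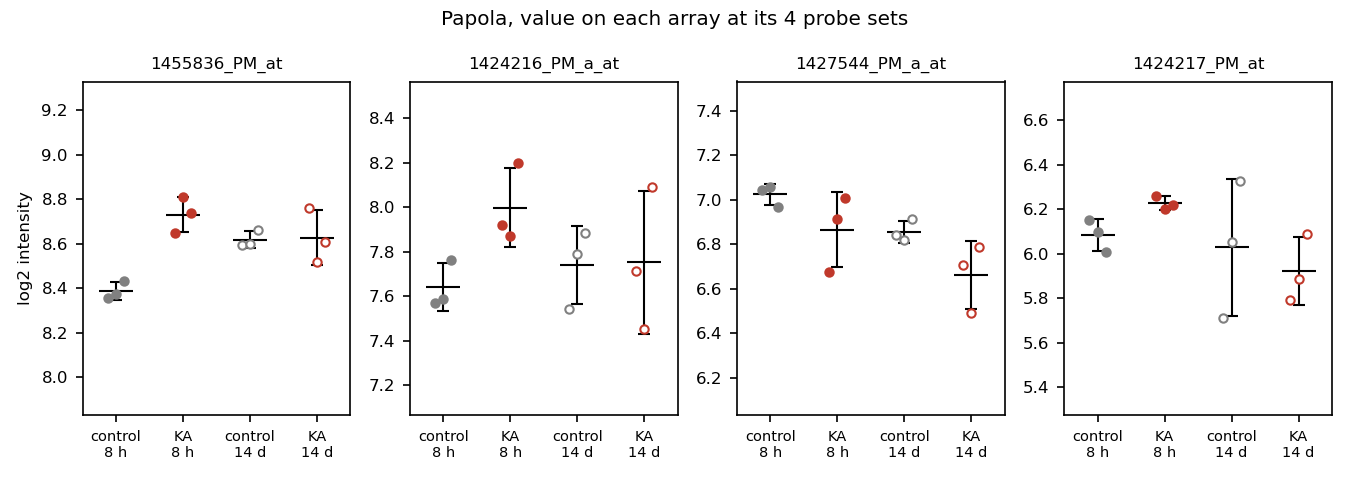
Log2 intensity of Papola on each array at its 4 probe sets, in the 4 groups, with the mean and SD of 3 arrays; the panels span the same height on the log2 scale. At 8 h the KA points lie above the control points except in the panel of 1427544_PM_a_at, where only 1 KA point lies above a control point.

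That call was lost without the first or second control array (adjusted p = 0.0693 and 0.0717) or the first KA array at 8 h (adjusted p = 0.0757), with differences from -0.48 to -0.45. With the mean of all probe sets in place of the highest one, Papola had a change of 0.17 (adjusted p = 0.212) and Dcp2 of -0.12 (adjusted p = 0.207), and neither passed; the mean for Dcp2 takes in its probe set near background, whereas all 4 of Papola were above background on 12 arrays. The other member genes whose probe sets had both signs were Cnot6l, Dcp1a, Ddx6, Pabpn1 and Wdr33, with no probe set past the threshold. The 3 probe sets shared by Cstf2 and Nox1 had changes of -0.03, -0.25 and 0.26 at 8 h, none of which passed, and they cannot be given to either gene.

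Of 58 further genes of the same pathways, 49 were tested, and 1 rose and 2 fell at 8 h (6.12%, against 17.5% of all genes tested). Noct, which encodes nocturnin, a rhythmically expressed relative of the CCR4 deadenylases, rose from 8.58, 8.43 and 8.39 on control arrays to 8.87, 8.90 and 8.94 on KA arrays, a change of 0.44 ± 0.11 (SE; adjusted p = 0.00911, limma). Tut7, an enzyme that adds uridines to messages with short tails, fell from 7.07, 6.93 and 6.89 to 6.56, 6.65 and 6.67, a change of -0.34 ± 0.08 (adjusted p = 0.0107). Nudt16, a hydrolase with decapping activity, fell from 6.06, 5.89 and 6.14 to 5.65, 5.29 and 5.48, a change of -0.56 ± 0.13 (adjusted p = 0.00874). In each of these 3 the groups did not overlap. None of the 12 tested genes of other 3′ end processing factors and poly(A) polymerases passed at 8 h, and none of the 13 of the exosome and Ski complex, which degrade messages from the other end. In limma, 0 of the 49 passed at 14 d, in the difference between the times or between the controls. At an unadjusted p under 0.05 there were 3 (6.12%, against 12.6% of all genes), 7 (14.3%, against 17.8%) and 8 (16.3%, against 14.8%).

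Markers of cell types moved in the same comparisons, and their part in the changes of the members was not tested. At 8 h, 3 of 7 measured principal cell markers fell (Dsp, Calb1 and Neurod6), with a log2 summed level of 11.4 to 11.6 in controls and 11.2 to 11.4 with KA, and 1 of 6 neuron markers fell (Rbfox3; 13.1 to 13.2 in controls and 13.1 to 13.3 with KA). Of 6 microglia markers 3 fell (9.21 to 9.39 and 8.96 to 9.15), and 2 of 4 phagocyte markers rose (6.56 to 6.64 and 7.44 to 7.59). Of the phagocyte markers that rose, Cd68 was above background on all 12 arrays and Lgals3 on only 7. The choroid plexus markers summed to 9.80 on one KA array at 8 h and up to 12.3 on the others of that group. Of 6 astrocyte markers 1 rose (Gfap, by 1.02; 12.9 and 13.0 to 13.1), 2 of 4 measured oligodendrocyte markers fell (Mog, -0.69, and Cnp, -0.29; 11.8 to 12.0 and 11.7 to 11.9), and of 5 endothelial and mural markers Pecam1 rose by 0.73 and Vtn fell by 0.39 (9.42 to 9.57 and 9.51 to 9.59). At 14 d, when no member passed, 2 of 7 principal cell markers fell (Dsp, -0.71, and Fibcd1, -0.96; 11.3 to 11.5 in controls and 11.1 to 11.5 with KA) and so did 1 of 6 neuron markers (Syt1, -0.34; 13.2 to 13.3 and 12.9 to 13.2). At that time 5 of 6 microglia markers rose (9.64 to 9.75 in controls and 10.7 to 10.9 with KA), 3 of 4 phagocyte markers rose (6.86 to 6.96 and 9.47 to 10.0), and 2 of 6 astrocyte markers rose (13.0 to 13.1 and 13.4 to 13.7). Among these phagocyte markers, Cst7 was above background on only 3 of 12 arrays, those of KA at 14 d.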

How the data were processed

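The authors' deposited table holds log2 expression values per probe set, made with RMA in the affy package per the submitters' processing notes, with no version given; the scale is not stated there and was read from the values. Amplification started from 5 ng of RNA and ran for 22 cycles, per the labels, so small differences may carry amplification noise. Probe sets with 1 gene symbol in the platform annotation were used (28898 of 45141; 551 with several symbols, 15588 unnamed and 104 array controls were not). Each gene was represented by its probe set with the highest mean, and kept if above the 30th percentile of the array on at least 3 arrays. Background was the mean of the array's GC-matched nonspecific probe sets (GC 18 to 25). One limma fit (limma 3.58.1, R 4.3.3) over 12 arrays gave all comparisons, with two-sided moderated tests and Benjamini-Hochberg adjustment over all genes; the script was tested on simulated data. In that test, with 50 genes changed by each size at 8 h, 10% of true log2 changes of 0.3 were recovered. For changes of 0.5 the share was 68%, and for changes of 1 it was 100%. Fewer genes changed in the simulation than were called in the data, so these shares do not carry over directly. A member that did not pass may still have changed by a small amount. The number of arrays limits the precision.

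Members called in any comparison are named with each array's value, as are members with probe sets of opposite signs of which one was called; the 3 next by p in each KA comparison have their change and p, and further pathway genes are named only when called. The members and lists were chosen with earlier results of these data known. Replicate numbers recur in all groups. At 8 h, deviations of same-numbered KA and control arrays correlated at 0.155, 0.138 and 0.413, each above the 0.1 taken as pairing; the pairing comes from the data, not the labels. Arrays of other numbers reached 0.163, 0.138 and -0.252, so only the third arrays stood out. At 14 d the correlations were 0.164, 0.0684 and 0.463. Alternatives covered filter, probe set choice, normalization, variance model, the 2 groups of one time alone, replicate block, threshold, X and Y genes and each array left out.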

Additional observations from a re-analysis of the deposited data

Results flagged for a closer look

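Parn was singled out because its KA effect differed between the 2 times by a test of that difference: the change at 14 d exceeded the change at 8 h by 0.67 on the log2 scale (adjusted p = 0.0236, limma). All 3 KA arrays at 8 h lay below all controls of both times, and those arrays also carried the Xist and Y-linked values given above. The part of sex in this difference cannot be told apart from that of KA.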

How the results depend on the processing

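At 8 h, 8 members passed; 7 did with median centring, 6 with the mean of all probe sets, cyclic loess or the 8 h groups alone, 4 at an adjusted p under 0.01 and 4 with the third arrays left out, and leaving out single arrays gave 4 to 9. At 14 d, 0 passed; array weights gave 6, and leaving out single arrays gave 0 to 1. For the difference between the times, 1 passed; 2 passed with no filter, the 50th percentile filter, cyclic loess, array weights and the replicate block, 0 with the mean of all probe sets, without the x_at and s_at classes of probe sets, at an adjusted p under 0.01 and with the third arrays left out, and leaving out single arrays gave 0 to 2. Between the controls, 0 passed; array weights gave 2, the replicate block 1, and leaving out single arrays 0 every time. The replicate block gave 9 members at 8 h and changed no other call among the members than those of Cnot6l, Xrn1 and Paip1. For 17 results on named members, 429 values were computed under an alternative. Of these, 364 kept direction and the call or lack of one, 54 lost the call, 11 gained it and 0 reversed. Results not called in the main fit had no call to lose, so the 364 overstate how well calls held. At 8 h, Cpsf3 lost its call in 12 of 26 alternatives, Pabpc1 in 11, Dcp2 in 10, Cnot10 in 8 and Papola in 1. Pabpc4, Parn and Xrn1 lost theirs in 0. Calls gained by other members enter only the counts above. The causes were not tested. With 3 arrays per group, standard errors of member changes were 0.08 to 0.15 on the log2 scale.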
